A study of Arabidopsis thaliana with 12 samples.

Results

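PRK (AT1G32060) encodes phosphoribulokinase and SBPASE (AT3G55800) encodes sedoheptulose-1,7-bisphosphatase, a pair of enzymes of the Calvin cycle in the chloroplast stroma. They are the 2 genes of that cycle, of 25 listed by locus, that an array probe named alone, and 2 of the 691 loci so named. Each was measured by 1 probe, numbered 3151 for PRK and 1517 for SBPASE, of the 3439 probes on the array. Transcripts were measured on 12 single-channel arrays of total RNA from Arabidopsis thaliana, ecotype Wassilevskija, with 6 arrays of the toc160 mutant and 6 of the wild type (WT). The toc160 mutant imports proteins poorly across the outer envelope of the chloroplast, and WT shares its ecotype and carries no named allele or treatment. The labels give no tissue, age, light regime or time of harvest, nor the nature of the toc160 allele, and do not say whether the replicates were separate plants.

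The Calvin cycle fixes carbon dioxide onto ribulose-1,5-bisphosphate and rebuilds that acceptor from the sugar phosphates it makes. SBPase removes a phosphate from sedoheptulose-1,7-bisphosphate in the regeneration branch, and phosphoribulokinase uses ATP to make the acceptor itself in the last step. Both enzymes are switched on in the light through reduction by thioredoxins, and in the dark phosphoribulokinase is held inactive in a complex with glyceraldehyde-3-phosphate dehydrogenase and the small protein CP12. Both proteins are encoded in the nucleus and enter the chloroplast as precursors through the import machinery of the envelope, of which the receptor altered in toc160 is a part. The arrays report transcripts, and neither import nor enzyme activity was measured.

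Within each genotype replicate 1 was nearly a copy of replicate 2, as were 3 of 4 and 5 of 6, with Spearman correlations of 0.981 to 0.989 over the 691 loci, against 0.877 to 0.947 for other arrays of the same genotype. Each such pair was therefore averaged and counted once, which leaves 3 pair averages per genotype, and the pair numbers carry no order in time. Pairs with the same number deviated together in both genotypes (r of 0.568 to 0.797 between their deviations from the group means, across loci, which are not independent replicates). Deposited median intensities were 0.627 to 0.646 on toc160 arrays and 0.477 to 0.551 on WT arrays. Precision is limited by how few arrays there are. P-values rest on the spread between these samples, which may be technical. Neither RNA per cell nor the number of green cells was measured, so less transcript per cell and fewer expressing cells cannot be told apart.

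PRK transcript was lower in toc160 than in WT in each of the 3 pairs, by a mean of 0.65 on the log2 scale after quantile normalization, but the difference did not pass the test over all loci. On the arrays of replicates 1 to 6 the deposited intensity of PRK, in the authors' arbitrary units, was 0.700, 0.578, 0.431, 0.407, 0.414 and 0.369 in toc160. On the WT arrays it was 0.700, 0.630, 0.632, 0.588, 0.505 and 0.493. The genotypes overlapped on this scale, on which toc160 arrays had the higher medians. Here toc160 replicate 1 matched the highest WT array to 3 digits and replicate 2 lay within the WT range. The other 4 toc160 arrays all lay below the lowest WT array. After quantile normalization toc160 replicates 1 and 2 stood at -0.64 and -0.94 on the log2 scale. Both were within the WT range of -0.99 to -0.27 but below its highest array. Pair averages were 0.483 ± 0.136 in toc160 and 0.591 ± 0.0844 in WT (SD, n = 3).

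SBPASE transcript did not show a common direction. Its deposited intensity was 0.656, 0.701, 0.731, 0.650, 0.935 and 0.881 on toc160 arrays of replicates 1 to 6. In WT it was 0.542, 0.583, 0.488, 0.531, 0.926 and 0.940. The deposited scale places the median locus 0.33 higher in toc160 on log2 intensities. On it every toc160 value in replicates 1 to 4 lay above every WT value. In replicates 5 and 6 both genotypes reached their highest intensities and lay close together. Pair averages were 0.759 ± 0.129 in toc160 and 0.668 ± 0.231 in WT (SD, n = 3). After quantile normalization, which gives every array the same distribution of intensities, the mean difference was -0.07 on the log2 scale. The normalized values of replicates 1 to 4 overlapped, from -0.79 to -0.61 in toc160 and from -0.86 to -0.53 in WT.

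**Figure D1:**
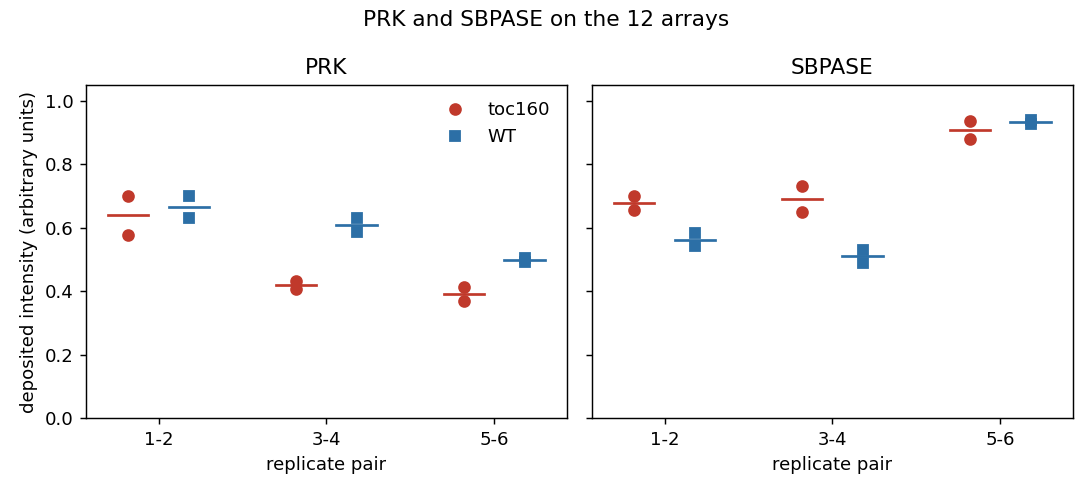
Deposited intensity (arbitrary units, linear axis from 0) of PRK on the left and SBPASE on the right, for each of the 12 arrays by replicate pair. Circles are toc160 arrays, squares WT arrays and short lines the mean of the 2 arrays of a pair. PRK in toc160 lies below WT in pairs 3-4 (0.419 against 0.610) and 5-6 (0.391 against 0.499), and SBPASE is highest in pair 5-6 in both genotypes (0.908 in toc160, 0.933 in WT).

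The comparison of genotypes asked whether the transcripts of these imported enzymes differ when import is impaired. On normalized log2 intensities PRK stood at -0.79, -1.44 and -1.58 in toc160 pairs 1-2, 3-4 and 5-6, and at -0.35, -0.57 and -0.95 in the WT pairs. The toc160 minus WT difference was thus -0.44, -0.87 and -0.63 in the 3 pairs. The only overlap of pair averages was that of toc160 pair 1-2 with WT pair 5-6. Over all 691 loci, 145 (21.0%) were likewise lower in toc160 in all 3 pairs, so the shared sign by itself does not set PRK apart.

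In the limma fit on pair averages the PRK difference of -0.65 had an SE of 0.27, a 95% interval of -1.36 to 0.07 and an adjusted p of 0.506 (unadjusted p 0.0666). With the pair as a block the interval was -0.999 to -0.299 and the limma adjusted p was 0.101 (unadjusted p 0.0104). The exact permutation test over the 6 pair averages, which ignores the pairing, gave a two-sided p of 0.2, where 0.1 is the smallest possible. The exact sign-flip test over the 3 pairs gave 0.25, which is the smallest it can give. Of all loci, 3 (0.434%) passed an adjusted p of 0.05 in the unblocked fit and 12 (1.74%) in the blocked fit, and PRK was among neither. By size, PRK had the 24th lowest difference of the 691 loci. With the pair as a block PRK passed under median centring (limma adjusted p 0.00798), as did 70 (10.1%) of all loci. It also passed over only the 518 brighter loci (limma adjusted p 2.44e-05), of which 116 (22.4%) passed. In that last fit the variance of each locus was drawn strongly towards a common one, with 32.7 prior degrees of freedom against 0.844 over all loci.

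SBPASE in toc160 pairs stood at -0.69, -0.70 and -0.29 on the normalized log2 scale, and in WT pairs at -0.59, -0.81 and -0.08. The differences of -0.10, 0.11 and -0.22 in the 3 pairs fell on both sides of 0. The limma fit gave -0.07 (SE 0.23, adjusted p 0.996, unadjusted p 0.773), with a 95% interval of -0.68 to 0.54, or -0.34 to 0.20 with the pair as a block (adjusted p 0.643). These intervals bound the difference but do not show that the genotypes have equal levels. Without pair 5-6 of WT alone the difference was 0.14 (limma adjusted p 0.864). That omission is unbalanced, since it keeps pair 5-6 of toc160, in which SBPASE was also highest. Without pair 5-6 in both genotypes the difference was 0.0012. As deposited, with no scaling between arrays, the SBPASE difference was 0.22 (limma adjusted p 0.616), on a scale that places the median locus 0.33 higher in toc160. Relative to that median, SBPASE lay lower in toc160 on the deposited scale too.

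**Figure D2:**
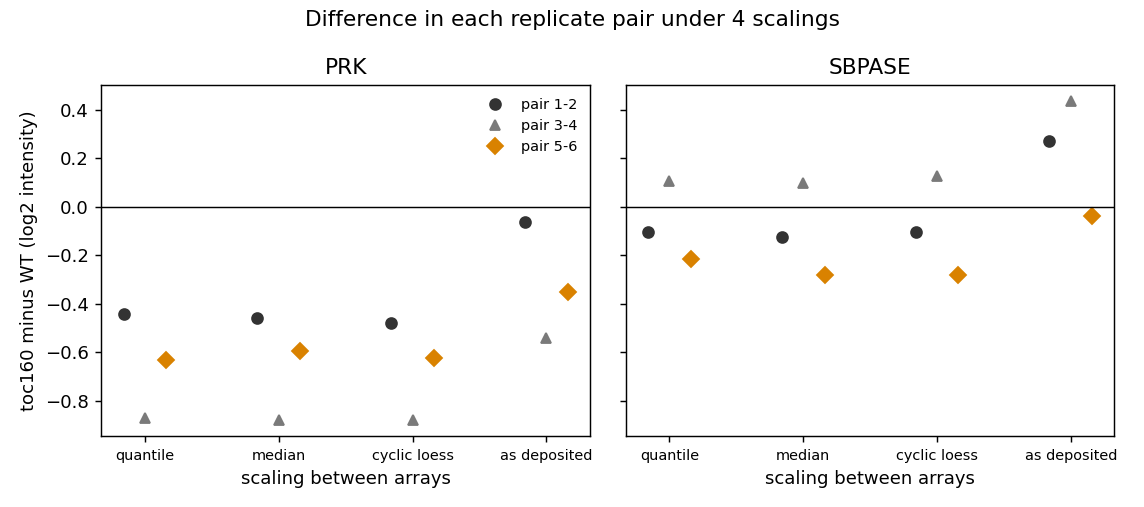
Toc160 minus WT difference in log2 intensity for PRK (left) and SBPASE (right) in each replicate pair, under quantile normalization, median centring, cyclic loess and as deposited. Each point is the difference of 2-array averages. PRK is below 0 in all pairs under all 4 scalings, from -0.06 to -0.88, while SBPASE takes both signs under each scaling and is shifted upward as deposited, to 0.27, 0.44 and -0.04.

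Whether the 2 genes differ in their response was tested on the difference between them within each sample. The toc160 minus WT difference of PRK lay below that of SBPASE in 3 of 3 pairs, by 0.34 to 0.98 on the log2 scale. The mean gap was -0.58 after quantile normalization and -0.54 as deposited, where a scaling factor common to an array cancels. The exact permutation test over pair averages gave p 0.3 (smallest possible 0.1), and the exact sign-flip test over the 3 pairs gave 0.25, which is the smallest it can give. With 3 pairs, a gap of this kind cannot reach a p of 0.05 in either test.

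**Figure D3:**
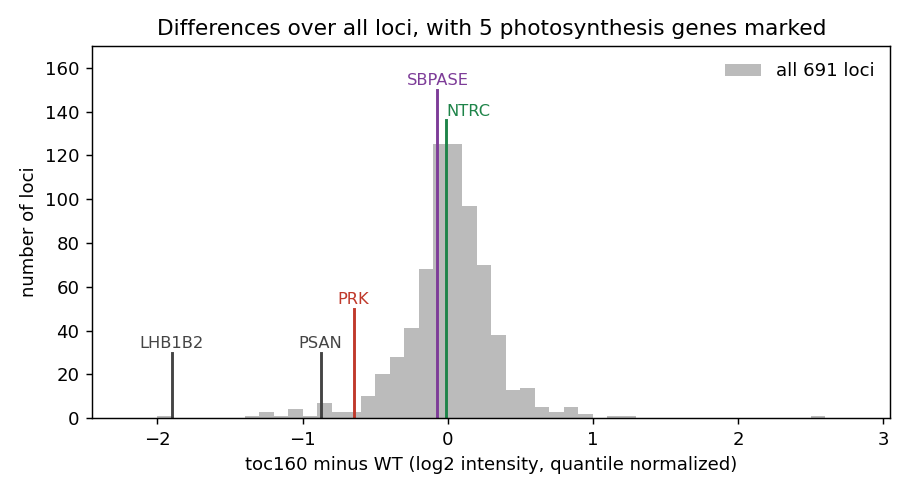
Histogram of the toc160 minus WT difference (log2 intensity, quantile normalized, pair averages) over all 691 loci, with vertical lines at PRK (-0.65), SBPASE (-0.07), NTRC (-0.01), PSAN (-0.88) and LHB1B2 (-1.90). The heights of the lines carry no value. PRK lies in the lower tail and SBPASE and NTRC in the middle.

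Both transcripts differed between replicate pairs 1-2 and 5-6, in opposite directions and in both genotypes. PRK was lower in pair 5-6 than in pair 1-2, by a log2 difference of -0.79 in toc160 and -0.60 in WT (SE 0.12 each, from the spread between arrays of a pair). SBPASE was higher in pair 5-6, by 0.40 in toc160 and 0.51 in WT (SE 0.07 each). After quantile normalization these steps of SBPASE exceeded its largest difference between genotypes within any pair. In pair 3-4, PRK in toc160 was lower than in pair 1-2 by a log2 difference of -0.65, against -0.22 in WT. SBPASE differed there by -0.01 in toc160 and -0.22 in WT.

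The test between pairs used all 12 arrays, so its p-values measure only the spread between near-duplicate arrays. PRK passed within toc160 (limma F test, adjusted p 0.00311) and within WT (0.0118). SBPASE passed within toc160 (limma F test, adjusted p 0.00551) and within WT (0.000736). Of all loci, 383 (55.4%) passed within toc160 and 426 (61.6%) within WT, so passing is common and not a result about these genes. Directions shared by both genotypes were also common: 273 loci (39.5%) were lower and 261 (37.8%) higher in pair 5-6 than in pair 1-2 in toc160 and WT alike.

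The toc160 minus WT difference itself was compared between pairs with the interaction of genotype and pair. This test used the same 12 arrays, so its p-values also measure only the spread between near-duplicate arrays. Neither PRK (limma adjusted p 0.256, unadjusted 0.10) nor SBPASE (limma adjusted p 0.171, unadjusted 0.0503) passed, while 73 of the 691 loci (10.6%) did. As deposited SBPASE passed (limma adjusted p 0.0475), as did 120 loci (17.4%) on that scale, with SBPASE differences of 0.27, 0.44 and -0.04 in the 3 pairs.

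**Figure D4:**
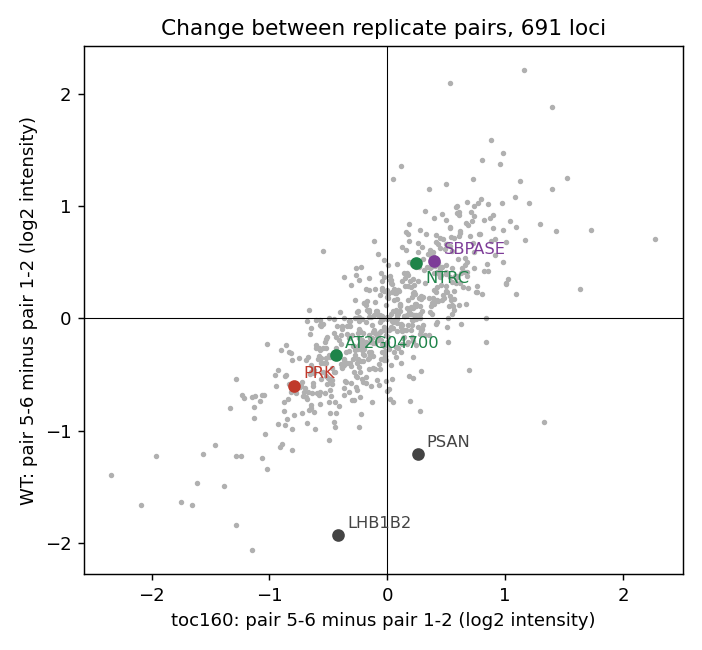
Difference of pair 5-6 minus pair 1-2 in log2 intensity (quantile normalized) in toc160 on the horizontal axis and in WT on the vertical axis, 1 point per locus, 691 loci. PRK (-0.79 in toc160, -0.60 in WT) and SBPASE (0.40 and 0.51) lie where both genotypes differ in the same direction, as does LHB1B2 with a much larger step in WT (-0.42 and -1.93), whereas PSAN (0.26 and -1.21) has opposite signs.

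Probes with neighbouring numbers varied together between pairs. Across 2170 pairs of probes with consecutive numbers, the difference of pair 5-6 minus 1-2 had a Spearman correlation of 0.244 in toc160 and 0.317 in WT. For probes 50 numbers apart it was 0.0351 in toc160 and 0.125 in WT. The toc160 minus WT difference had a correlation of 0.103 at consecutive numbers. Of the 7 probes within 5 numbers of PRK, 5 were lower in pair 5-6 in toc160 and 4 in WT. Probes 3149, 3152 and 3153, the nearest to PRK, were lower in both genotypes. Their differences were -0.73, -1.10 and -0.37 in toc160 and -0.49, -0.88 and -0.26 in WT. Of the 8 probes around SBPASE, 5 were higher in pair 5-6 in toc160 and 4 in WT. For the toc160 minus WT difference, 4 of the 7 neighbours shared the sign of PRK, with a median over the neighbours of -0.07. Of the 8 neighbours of SBPASE, 2 shared its sign, and their median was 0.23 against -0.07 for SBPASE itself. Whether the number follows the position on the array is unknown here, and the part of neighbouring probes in the values of PRK and SBPASE was not tested.

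The position of both probes in the intensity range was moderate. PRK lay between percentiles 23.9 and 56.5 of all probes on toc160 arrays and between 43.9 and 70.0 on WT arrays. SBPASE lay between percentiles 50.9 and 70.6 on toc160 arrays and between 48.2 and 76.2 on WT arrays. No value of either was near the floor of 0.0364 set for low intensities. A probe's signal depends on its own binding as well as on the transcript, so these ranks do not order the transcripts of different genes.

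Of the other Calvin cycle genes listed, from the Rubisco small subunits to transketolase and CP12, none was named alone by a probe, and 1 shared its probes with another gene. The thioredoxin system, which passes the light signal to both enzymes, had 2 of its 17 listed genes measured. NTRC is a chloroplast NADPH-dependent thioredoxin reductase with a thioredoxin domain of its own. Its deposited pair averages were 0.746, 0.793 and 0.907 in toc160 and 0.550, 0.622 and 0.902 in WT. As for SBPASE, the deposited toc160 averages of NTRC were above WT in pairs 1-2 and 3-4, and the genotypes were close in pair 5-6. The deposited scale places the median locus 0.33 higher in toc160. After quantile normalization the toc160 minus WT differences of NTRC were 0.08, 0.06 and -0.18 in the 3 pairs. Those of SBPASE were -0.10, 0.11 and -0.22, so the signs differed in pair 1-2. The normalized difference of NTRC was -0.01 (SE 0.16, limma adjusted p 1, unadjusted 0.945).

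AT2G04700, the other measured gene of that list, had deposited pair averages of 0.659, 0.676 and 0.510 in toc160 and 0.496, 0.626 and 0.452 in WT. Its normalized difference was -0.08 (SE 0.20, limma adjusted p 0.984, unadjusted 0.697). Neither gene of the thioredoxin system passed with the pair as a block (limma adjusted p 0.965 for NTRC and 0.444 for AT2G04700). As deposited both differences were positive (0.27 for NTRC and 0.24 for AT2G04700), below the shift of 0.33 in the median of all loci. Of the 15 genes listed for photorespiration, the 16 for triose phosphate export, starch and sucrose synthesis, and the 8 for the oxidative pentose phosphate pathway, 0 were named alone.

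Among markers of photosynthetic tissue 2 of 7 were measured, LHB1B2, a chlorophyll-binding antenna protein of photosystem II, and PSAN, a lumenal subunit of photosystem I. LHB1B2 had normalized log2 differences of -2.62, -1.98 and -1.10 in the 3 pairs, and PSAN of -1.50, -1.10 and -0.03. Both had their smallest difference in pair 5-6, while PRK had its smallest in pair 1-2. The mean was -1.90 for LHB1B2 (limma adjusted p 0.262, or 0.109 with the pair as a block) and -0.88 for PSAN (0.449, or 0.270 with the block). With the pair as a block both passed, like PRK, under median centring (limma adjusted p 0.00133 for LHB1B2 and 0.0147 for PSAN), as did 10.1% of all loci. Both also passed over the 518 brighter loci (limma adjusted p 3.87e-12 and 2.39e-05), as did 22.4% of those loci. That fit drew the variance of each locus strongly towards a common one (32.7 prior degrees of freedom), although PSAN ranged from -1.50 to -0.03 between pairs. The part that a changed share of green tissue has in the PRK values was not tested, and none of the 5 seed storage markers was measured.

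The loci most like PRK over the 12 normalized arrays, by Pearson correlation among 630 loci above the floor on every array, were AT4G30740 (0.924), AT3G44570 (0.924), AT5G48440 (0.917), AT3G04650 (0.902) and AT1G13990 (0.902). All 5 had a lower mean in toc160, with log2 differences between -0.75 and -0.39, and none passed (limma adjusted p 0.335 to 0.526). The choice by likeness to PRK favours that sign. Those most like SBPASE were AT2G30320 (0.949), OTP70 (0.943), AT2G40980 (0.924), AT1G32520 (0.920) and AT4G24910 (0.916). Their differences between genotypes lay between -0.17 and -0.01 on the log2 scale, and their likeness to SBPASE was 0.857 to 0.948 within toc160 arrays and 0.929 to 0.996 within WT arrays. For PRK the likeness was 0.734 to 0.973 within toc160 and 0.773 to 0.920 within WT. On the deposited scale, over all 12 arrays, it was 0.713 to 0.852 for the loci like PRK and 0.923 to 0.969 for those like SBPASE. Since the loci were chosen for likeness over these same arrays, the values within a genotype and on the deposited scale are no separate support for it. These correlations describe 12 arrays in 6 near-duplicate sets, and the part of the differences between pairs in them was not tested. The nearest of these probes by number was that of AT2G40980, 36 numbers from SBPASE.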

How the data were processed

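The deposited table holds 1 intensity per probe on a linear scale from 0 to 100 for each of 12 arrays. The authors' scanning, background treatment and scaling are not given in these sources. Probes were named through the platform annotation: 692 named 1 gene, 870 several and 1877 none, and 690 of the 692 matched the TAIR10.1 gene table by gene identifier. Coordinates are left out, since the arrays come without a stated genome build. Intensities at or below 0.0364, the 1st percentile of positive values, were raised to it, taken to log2 and quantile normalized over all probes, and probes of 1 locus were averaged (691 loci). Near-duplicate arrays were averaged, and toc160 minus WT was fitted with limma 3.58.1 in R 4.3.3, two-sided, without a block, with Benjamini-Hochberg adjustment over all loci and a threshold of 0.05. Same-numbered toc160 and WT arrays deviated together from their groups (r of 0.482 to 0.727 for all 6 numbers), so the numbers were taken to pair them, and the fit blocked by pair is given beside the other. The fits were tested on simulated data in which every locus varied, unlike the loci held at the floor here. Alternatives were other scalings, an offset of 0.1 in place of the floor, leaving out the dimmest 25% of loci, single arrays as replicates, all probes, and leaving out arrays or pairs. Besides PRK and SBPASE, the genes named were up to 3 measured genes of each list with the smallest p and the member furthest the other way, and the 5 loci most like each in pattern. The members, lists and tests were chosen with earlier results of these data known.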

Additional observations from a re-analysis of the deposited data

How the results depend on the processing

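Of 34 alternatives, PRK kept its negative sign in all, between -0.89 and -0.32 on the log2 scale, and passed in 3: a log2 difference of -0.65 with the replicate block by pair and the dimmest 25% of loci left out (limma adjusted p 2.44e-05), -0.65 with the block and median centring (0.00798), and -0.65 with single arrays as replicates and the replicate number as block (0.00265), which counts near-duplicate arrays as separate samples. With single arrays and no block its limma adjusted p was 0.0554. SBPASE passed in none. It turned positive as deposited (0.22, with and without the block) and without pair 5-6 in both genotypes (0.0012) or in WT alone (0.14), and leaving out arrays or pairs in turn gave -0.23 to 0.14. The interaction of genotype and pair for SBPASE passed as deposited (limma adjusted p 0.0475), measured only against the spread between near-duplicate arrays. The cause of these changes was not tested.

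The number of loci passing moved by over 1.5 times in 21 of 34 alternatives and by less in 13, among them cyclic loess (4), the offset of 0.1 (3) and most omissions of a single array (2 to 4). Against 3, it was 30 as deposited (24 higher, 6 lower), 11 with median centring (0 higher, 11 lower), 16 without the dimmest 25% and 76 of 3439 when all probes were tested. With the pair as replicate block it was 12, or 116 without the dimmest loci, 256 as deposited (237 higher), 70 with median centring and 21 with cyclic loess. Single arrays gave 72, or 196 with the replicate number as block. Leaving out each pair or array in turn gave 0 to 8 in limma, with 47 to 86 at an unadjusted p under 0.05. It was 1 without toc160 replicate 3 and 8 without WT replicate 5, and 0 to 2 without any pair. The tests between pairs within a genotype passed for both genes under all 5 alternatives run. Signal was well above the floor for both probes, and 3 pairs per genotype limit what can be told.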
